A study of Mus musculus with 2 samples.

Results

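The 32 genes described here act in the interferon response and in antigen presentation by class I molecules of the major histocompatibility complex (MHC), and were read in the retina of mice with streptozotocin-induced diabetes. They were chosen by symbol from a fixed list, and all 32 were found among the 17087 genes of the count table. They comprise 16 interferon-induced effectors, 6 genes of interferon signalling, its feedback and its chemokine output, and 10 genes of class I presentation. Streptozotocin (STZ) is toxic to the insulin-producing beta cells of the pancreas. The STZ group came from male C57BL/6J mice given STZ once they were 3 to 5 weeks old, by intraperitoneal injection of 55 mg/kg. Glucose over 300 mg/dL defined diabetes, and the retinas were taken after 25 weeks of high glucose. The control group came from untreated C57BL/6 mice, whose sex and age the labels do not give apart from those of the STZ mice. The cells of 3 retinas were pooled into 1 droplet library (10x Chromium, 3′ chemistry) in each group, so there was 1 library per group, the animals within a pool cannot be told apart, and no replicate check of any difference was possible. No test was therefore made, and every interval below covers counting error only. Treatment cannot be told apart from any other difference between the pools, such as age at sampling or the preparation of the cells, for which the labels give no separate values.

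Type I interferons bind the receptor chains Ifnar1 and Ifnar2, whose kinases activate Stat2. Stat2 acts with Irf9 at the interferon-stimulated response element (ISRE) upstream of genes such as Ifit1 and Isg15. Irf7 amplifies interferon production, and Usp18 limits signalling at the receptor. In class I presentation, the immunoproteasome subunits Psmb8 and Psmb9 cut proteins into peptides, Tap1 and Tap2 carry these into the endoplasmic reticulum, and Tapbp helps load them onto a heavy chain, H2-K1, H2-D1 or H2-T23, that is paired with B2m. Nlrc5 is the transactivator of the class I genes. In the nervous system, microglia and endothelial cells are known for high class I levels, and neurons for low ones.

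The element itself is shown upstream of an effector that differed most between the libraries in Müller glia-like cells, of a second effector, and of the invariant class I chain, which differed little over that class. The sequences are from RefSeq (build GRCm38.p6), 200 bases long, from 250 to 51 bases before the annotated start, 5′ to 3′ in the sense of the gene. Capitals mark GAAANNGAAA, on either strand.
Ifit1 (chr19:34640639-34640838, plus strand): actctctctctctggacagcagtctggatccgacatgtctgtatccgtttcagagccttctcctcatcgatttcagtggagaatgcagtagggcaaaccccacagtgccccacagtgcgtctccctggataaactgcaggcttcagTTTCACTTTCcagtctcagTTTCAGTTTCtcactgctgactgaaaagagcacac
Isg15 (chr4:156200869-156201068, minus strand): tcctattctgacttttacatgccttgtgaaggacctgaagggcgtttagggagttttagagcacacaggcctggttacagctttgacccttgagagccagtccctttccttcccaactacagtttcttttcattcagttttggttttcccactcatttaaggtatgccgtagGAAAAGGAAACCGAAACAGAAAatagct
B2m (chr2:122147437-122147636, plus strand): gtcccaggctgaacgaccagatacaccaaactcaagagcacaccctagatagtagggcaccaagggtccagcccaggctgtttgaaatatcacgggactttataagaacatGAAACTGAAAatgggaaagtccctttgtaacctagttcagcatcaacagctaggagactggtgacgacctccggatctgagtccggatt
Ifit1 had 2 matches, which began 104 and 85 bases before the start. Isg15 had 3 overlapping matches, and B2m had 1, at 139 bases. Of the 26 genes of the list that were in the RefSeq table, 12 held the motif in the 250 bases before a start (46.2%), against 936 of 27025 genes in all (3.46%). The gamma-activated sequence TTCNNNGAA, which reads the same on both strands, was found upstream of 5 of the 26 genes (19.2%), namely Oas1a, Bst2, Irf1, Psmb8 and Ifit2, and of 8.13% of all genes. A match describes these letters and shows no binding.

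The STZ library held 12393 cells and the control library 7169. The median depth was 2062 UMIs per cell in STZ and 3800 in control, a UMI being a tag that counts 1 captured RNA molecule. After filters, 8232 STZ cells and 5098 control cells were grouped into 26 clusters, without using the listed genes, and the clusters were named from marker genes. These names carry the ending -like. The libraries shared 21 cell barcodes. In 8 classes both libraries had at least 50 cells, and these were compared. Within a class the UMIs of a gene were summed over the cells of a library and divided by all UMIs of that class and library (CPM, counts per 1000000 UMIs). CPM values of different genes are not set against each other here. A gene was taken as measured in a class where both libraries together gave at least 10 CPM and at least 20 UMIs, and was called higher or lower at 1.5-fold or more. Fewer cells expressing a gene and less RNA per cell cannot be told apart in such sums.

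The genes were read mainly from non-neuronal cells. B2m, the invariant chain of all class I molecules (chr2:122147686-122153083 on mm10), stood at 2965 CPM in STZ and 1978 CPM in control microglia-like cells. Endothelial-like cells had 687 CPM in STZ and 924 CPM in control. Pigment epithelium-like cells had 274 CPM in STZ and 281 CPM in control. The intervals of these 3 classes did not overlap one another in either library. Lower still by CPM were 2 classes whose intervals overlapped each other within each library. Müller glia-like cells had 195 CPM in STZ and 181 CPM in control. Pericyte- or smooth muscle-like cells had 177 CPM in STZ and 150 CPM in control. In control, the intervals of both also overlapped that of pigment epithelium-like cells. The neurons were lowest. Rod-like cells had 14.9 CPM in STZ and 12 CPM in control, and amacrine-like cells 20.2 CPM in STZ and 9.85 CPM in control. Cone-like cells had 4.16 CPM in STZ and 3.47 CPM in control, rod bipolar-like cells 3.27 CPM in STZ and 2.26 CPM in control, and cone bipolar-like cells 7.67 CPM in STZ and 8.46 CPM in control. Astrocyte-like cells, 8 in STZ and 7 in control, were left aside. Of the 32 genes, 29 were measured in at least 1 of the 8 compared classes, and H2-K1 and H2-D1, the classical class I heavy chains of this strain, in all 8. Oas1a, an oligoadenylate synthetase, Cxcl10, a chemokine that attracts T cells, and Nlrc5 were measured in none of the 8.

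By pooled CPM alone, without use of intervals, the class that stood highest differed between the libraries for some genes. In STZ, 13 genes were highest in microglia-like, 12 in endothelial-like, 2 in Müller glia-like and 2 in pericyte-like cells. In control, 20 genes were highest in endothelial-like, 6 in microglia-like, 2 in pigment epithelium-like and 1 in pericyte-like cells. Only genes with more than 3 UMIs in their highest class were placed, and the microglia-like cluster held 25 STZ and 13 control cells. Ifit3 and Oasl2 were the genes highest in Müller glia-like cells in STZ. Ifit3 had 107 CPM in STZ and 82.6 CPM in control Müller glia-like cells, and 68.3 CPM in STZ and 104 CPM in control endothelial-like cells.

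**Figure D1:**
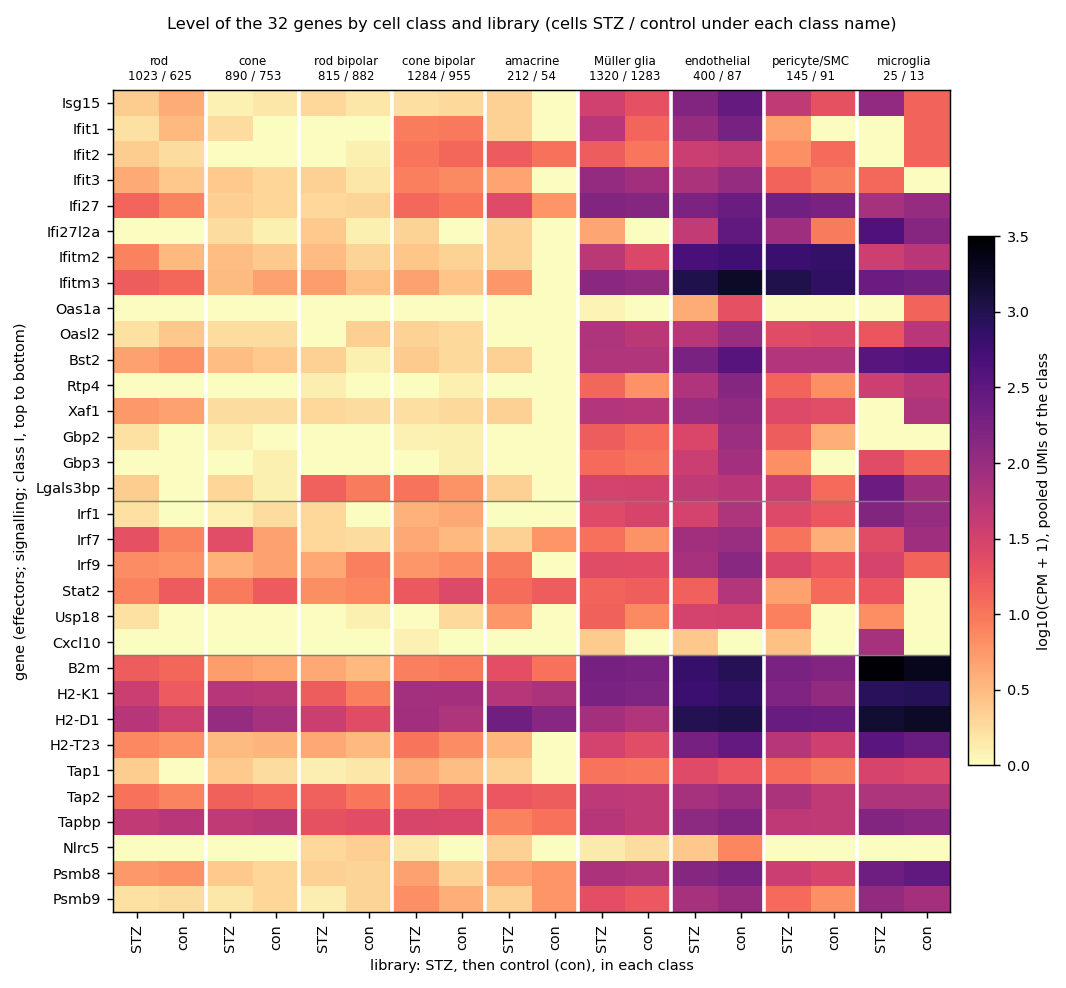
Level of each gene, as log10(CPM + 1) of the pooled UMIs of a class, in 9 classes, with the STZ library left of control in each pair of columns; numbers under a class name are its STZ and control cells, and SMC stands for smooth muscle cells. The microglia-like, endothelial-like, pericyte-like and Müller glia-like columns are dark for most genes, while the 5 neuronal classes are dark for H2-K1, H2-D1, Tapbp and little else.

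Few genes rested on a single cell. Over all kept cells, the highest cell held between 0.423% and 37.9% of a gene's UMIs in STZ (median 1.95%, 30 genes with at least 20 UMIs). In control it held between 0.473% and 38.5% (median 2.27%, 29 genes). Cxcl10 lay at the top of this range in STZ, with 29 UMIs in 11 of 8232 cells, 11 of them in 1 microglia-like cell. Control had 0 UMIs of Cxcl10. Gbp2, an interferon-induced GTPase, had 20.4% of its 108 STZ UMIs in 1 Müller glia-like cell. In control, Ifi27l2a, a small interferon-induced membrane protein, had 38.5% of its 109 UMIs in 1 endothelial-like cell, and Ifit1, an effector that binds foreign RNA, had 10.7% of its 178 UMIs in 1 Müller glia-like cell. B2m and H2-D1 were spread widely, with 2.05% and 1.08% of their STZ UMIs in the highest cell and 1.85% and 2.27% of their control UMIs.

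In Müller glia-like cells, the radial glia that span the retina, most measured genes of the list were slightly higher in STZ, and 4 effectors were higher by 1.5-fold or more. This class held 1320 STZ and 1283 control cells. Of 24 measured genes, 21 had a ratio above 1, 4 reached 1.5-fold higher (5.88% of all 8895 genes measured in this class did) and 0 reached 1.5-fold lower (2.95% of all genes). The median log2 ratio was 0.24, against 0.03 over all genes. Ifit1 (chr19:34640871-34650009), which holds 2 of the motifs, had 260 UMIs in STZ and 85 in control, or 50.9 CPM against 12.6 CPM. That is a ratio of 4.04 (95% interval 3.15 to 5.22). Ifitm2, a membrane protein that blocks virus entry, had 48.8 CPM in STZ and 25.8 CPM in control, a ratio of 1.89 (1.55 to 2.31). Ifit2, a relative of Ifit1, had 14.7 CPM in STZ and 8.90 CPM in control, a ratio of 1.65 (1.16 to 2.36). The fourth was Isg15, a ubiquitin-like modifier, at 32.7 CPM in STZ and 19.9 CPM in control, a ratio of 1.64 (1.30 to 2.08). The other 9 measured effectors lay within 1.5-fold, among them Bst2, which tethers budding virus, at 59.9 CPM in STZ and 59.3 CPM in control. The motif did not follow these ratios gene by gene. Bst2, Ifit3, Gbp2 and Gbp3, all within 1.5-fold, also held it, and Ifit2 did not.

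The difference in Ifit1 was not held by the highest cells alone, although these were higher in STZ. The 3 highest cells had 101 of 260 UMIs in STZ and 27 of 85 in control, and the UMIs outside them still gave a ratio of 3.62. For Isg15 the 3 highest cells had 49 of 167 UMIs in STZ and 25 of 134 in control, and the ratio outside them was 1.43, under the 1.5-fold line. The 3 STZ cells with the most UMIs of the 22 effector and signalling genes together had 156, 121 and 102 of them, and the 3 such control cells 67, 61 and 56. The STZ cells showed 15, 15 and 14 of the 22 genes, with 0 UMIs of the endothelial gene Cldn5 and 0 of the leukocyte gene Ptprc. Cells with at least 5 of the 22 genes were about as frequent in both libraries, 139 in STZ (10.5%) and 141 in control (11.0%). The share with none of them was 28.8% in STZ and 17.9% in control, at median depths of 3999 UMIs in STZ and 5706 UMIs in control.

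**Figure D2:**
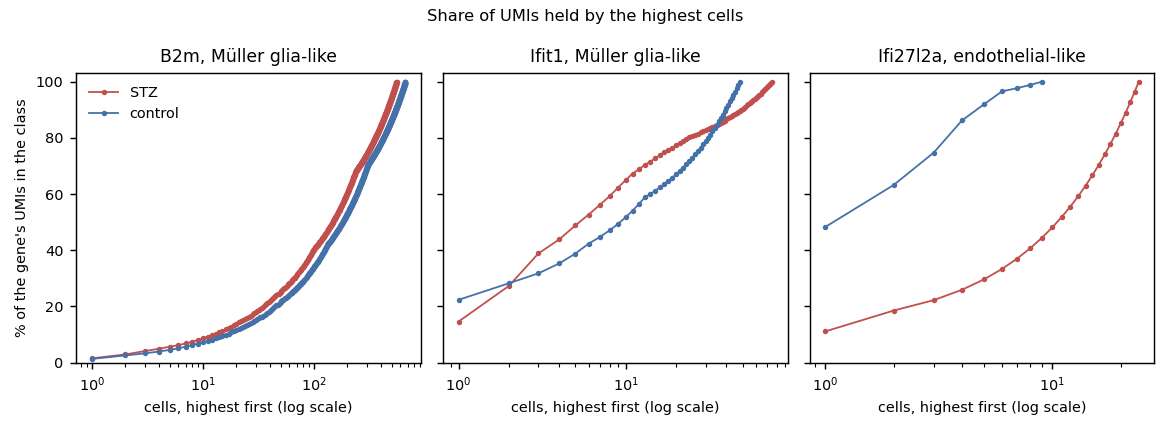
Cumulative share of a gene's UMIs within a class (y axis, percent) against the number of cells, highest first (x axis, log scale), for cells with at least 1 UMI; STZ is red and control blue. For B2m in Müller glia-like cells both curves climb slowly over 556 STZ and 666 control cells, for Ifit1 the 3 highest of 75 STZ cells hold 38.8% and the 3 highest of 48 control cells 31.8%, and for Ifi27l2a in endothelial-like cells 1 of 9 control cells holds 48.3%, against 11.1% in 1 of 24 STZ cells.

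The Müller glia-like class was made up of clusters whose sizes differed between the libraries. Cluster 9 had 354 STZ and 595 control cells, and cluster 19 had 134 STZ and 125 control cells. Cluster 13 had 386 STZ and 59 control cells, with median depths of 938.5 UMIs in STZ and 1162 UMIs in control. Ifit1 was higher in STZ in clusters 9 and 10, whose cells were the deepest, at 50.9 CPM in STZ against 11.1 CPM in control in cluster 9 (ratio 4.59, 3.07 to 7.0) and 57.6 CPM against 14.4 CPM in cluster 10 (ratio 4.00, 2.88 to 5.64). Cluster 10, whose leading genes included the immediate-early genes Fosb and Jun, also had more Isg15, with 29.9 CPM in STZ and 12.9 CPM in control (ratio 2.32, 1.59 to 3.43). Usp18, the feedback inhibitor, had 17.8 CPM in STZ and 6.30 CPM in control there (ratio 2.82, 1.66 to 4.95). In cluster 9 the Isg15 ratio was 1.28 (0.908 to 1.79), at 35.7 CPM in STZ and 27.9 CPM in control.

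Class I genes of Müller glia-like cells lay within 1.5-fold of control over the whole class. All 8 measured ones had a ratio above 1, and 0 reached 1.5-fold. B2m had 195 CPM in STZ and 181 CPM in control (ratio 1.08, 0.992 to 1.17). H2-K1 had 178 CPM in STZ and 166 CPM in control (ratio 1.07, 0.982 to 1.17). H2-D1 had 77.3 CPM in STZ and 59.3 CPM in control (ratio 1.30, 1.13 to 1.5), and after subtraction of free RNA, estimated from rod genes, its log2 ratio was 0.09 instead of 0.38. In cluster 9 alone the ratio was higher, at 1.57 for H2-D1 (1.28 to 1.92), 1.23 for B2m (1.08 to 1.40) and 1.19 for H2-K1 (1.04 to 1.36), and in cluster 10 it was 1.09, 1.10 and 1.08, with intervals that included 1. Among signalling genes, Irf1, Irf9 and Stat2 were measured and lay within 1.5-fold. Usp18, Irf7 and the effector Rtp4 lay under the 10 CPM minimum. Their levels were 13.5, 10.2 and 12.1 CPM in STZ and 6.08, 5.04 and 5.34 CPM in control, given as values without a call. Gnat1, a rod gene that these cells should lack, was at 251 CPM in STZ and 138 CPM in control. Cldn5 stood at 7.05 CPM in STZ and 2.23 CPM in control. The free share was estimated at 26.4% of UMIs in STZ and 12% in control, and after its subtraction the log2 ratio was 2.24 for Ifit1, 0.93 for Ifitm2, 0.87 for Ifit2, 0.20 for B2m and 0.19 for H2-K1. The part of endothelial RNA was not tested.

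**Figure D3:**
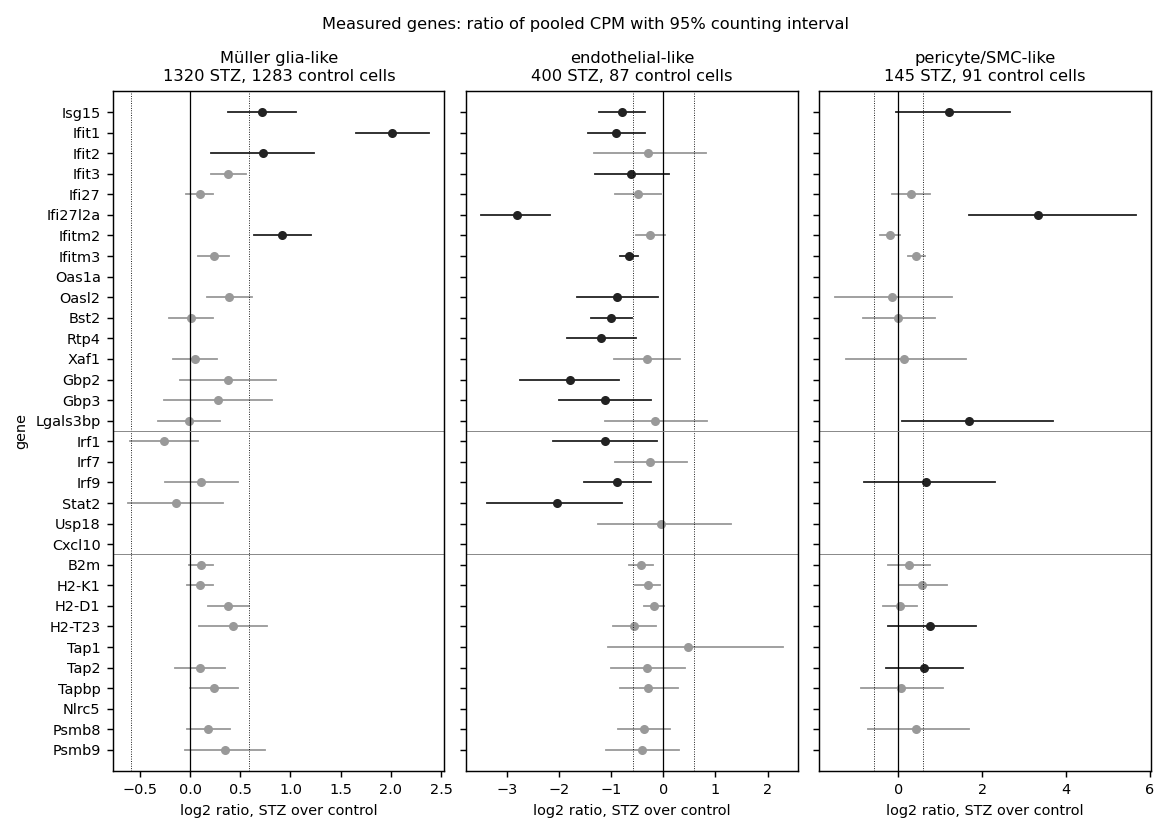
Log2 ratio of pooled CPM, STZ over control (x axis), of each measured gene in 3 classes, with 95% counting intervals; black marks genes at least 1.5-fold apart, grey the others, dotted lines the 1.5-fold limits, and horizontal lines separate effectors, signalling genes and class I genes from top to bottom. Ifit1 stands apart at 2.01 in Müller glia-like cells, 28 of 29 points lie below 0 in endothelial-like cells, and Ifi27l2a lies at opposite ends in the endothelial-like (-2.80) and the pericyte-like panel (3.34).

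In endothelial-like cells, which line the vessels, nearly all measured genes of the list had lower CPM in STZ, the effectors more so than the class I genes. The class held 400 STZ and 87 control cells. Of 29 measured genes, 28 had a ratio below 1 and 13 reached 1.5-fold lower, which 17.9% of the 6597 genes measured in the class did, while 0 reached 1.5-fold higher, which 20.8% did. The interval lay off 1 for 12 of the 13. The median log2 ratio was -0.49, against -0.02 over all genes. Effectors made up 10 of the 13, and the other 3 were Irf1, Irf9 and Stat2. Stat2, a transcription factor of the type I interferon pathway, had 14.0 CPM in STZ and 57.1 CPM in control, 4.09-fold lower (1.73 to 10.4). Gbp2 had 26.4 CPM in STZ and 90.7 CPM in control, 3.44-fold lower (1.81 to 6.73). Ifi27l2a had 27 UMIs in STZ and 87 in control, or 41.9 CPM against 292 CPM, 6.98-fold lower (4.49 to 11.2). In control 65 of these 87 UMIs were in 3 cells, and outside the 3 highest cells of each library the ratio was 0.441.

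The class I genes of endothelial-like cells lay within 1.5-fold of control. B2m had 687 CPM in STZ and 924 CPM in control, 1.34-fold lower (1.15 to 1.57). H2-K1 had 622 CPM in STZ and 766 CPM in control, 1.23-fold lower (1.04 to 1.45). H2-D1 had 968 CPM in STZ and 1099 CPM in control, 1.14-fold lower (0.990 to 1.30). H2-T23, a nonclassical heavy chain, had 192 CPM in STZ and 282 CPM in control. Reads of H2-K1, H2-D1 and the H2-Q genes can match near-identical copies, so each of these levels is uncertain by itself, here and in every other class. Among the effectors, Ifitm3, a relative of Ifitm2, had 1083 CPM in STZ and 1707 CPM in control, 1.58-fold lower (1.40 to 1.77).

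The depth of the endothelial-like cells differed with the direction of these ratios. Their median was 951.5 UMIs in STZ and 3165 UMIs in control, and 217 STZ cells lay under 1000 UMIs, against 14 control cells. Gnat1 stood at 492 CPM in STZ and 158 CPM in control, and the endothelial gene Cldn5 at 3768 CPM in STZ and 6561 CPM in control, that is 1.74-fold lower. Among cells with at least 2000 UMIs, 80 in STZ and 62 in control, the intervals of the class I ratios named here included 1. B2m had 891 CPM in STZ and 917 CPM in control there (ratio 0.972, 0.820 to 1.15), H2-K1 779 CPM in STZ and 751 CPM in control (1.04, 0.862 to 1.25) and H2-D1 1232 CPM in STZ and 1086 CPM in control (1.13, 0.976 to 1.32). In shallower cells the class I ratios lay lower. Between 1000 and 2000 UMIs, a range with 11 control cells, the ratio was 0.446 for B2m (0.249 to 0.848), 0.418 for H2-K1 (0.251 to 0.725) and 0.446 for H2-D1 (0.279 to 0.741), and under 1000 UMIs it was 0.415 for B2m (0.219 to 0.867). Several effectors stayed lower in the cells with at least 2000 UMIs. Bst2 had 212 CPM in STZ and 364 CPM in control, 1.72-fold lower (1.26 to 2.36). Rtp4, a chaperone of membrane receptors, had 77.4 CPM in STZ and 155 CPM in control, 2.0-fold lower (1.20 to 3.37). Gbp2 was 2.96-fold lower (1.35 to 6.96), with 28.7 CPM in STZ and 84.7 CPM in control. For Isg15 (218 CPM in STZ, 276 CPM in control) and Ifit1 (126 CPM in STZ, 184 CPM in control) the interval of the ratio in the deeper cells included 1. The haemoglobin gene Hbb-bs had 2431 UMIs in STZ and 0 in control in the deeper cells, and its part in the levels there was not tested. The median log2 ratio of the class was -0.25 in the deeper cells and 0.12 after subtraction of free RNA. The subtraction gave log2 ratios above 0 for B2m (0.21), H2-K1 (0.33) and H2-D1 (0.48) and left Ifi27l2a at -2.24, Stat2 at -2.03 and Gbp2 at -1.17. The estimated free share was 53.8% of UMIs in STZ and 16.1% in control.

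**Figure D4:**
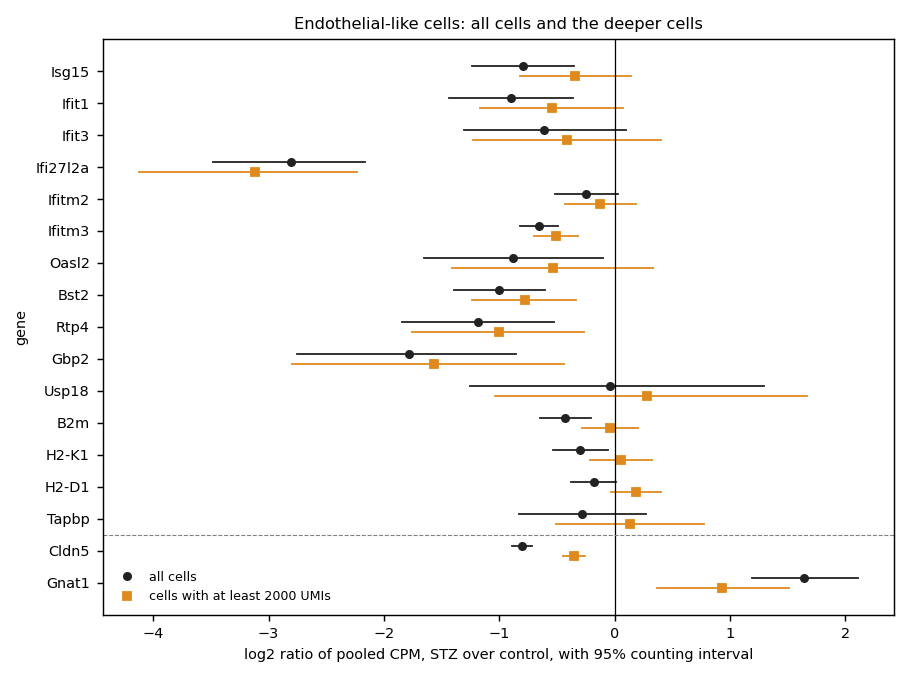
Log2 ratio of pooled CPM, STZ over control (x axis), in endothelial-like cells, for all 400 STZ and 87 control cells (black circles) and for the 80 STZ and 62 control cells with at least 2000 UMIs (orange squares), with 95% counting intervals; Cldn5 and the rod gene Gnat1 stand below the dashed line. The class I genes B2m, H2-K1, H2-D1 and Tapbp lie between -0.04 and 0.18 in the deeper cells, while Ifi27l2a, Ifitm3, Bst2, Rtp4 and Gbp2 stay below 0 with their whole interval.

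In pericyte- or smooth muscle-like cells, the contractile cells around vessels, 6 of 17 measured genes were at least 1.5-fold higher in STZ (13.0% of the 6196 genes measured in the class were) and 0 were lower (10.4% were). The class held 145 STZ and 91 control cells, and the median log2 ratio was 0.43, against 0.01 over all genes. The 6 genes were Ifi27l2a, Lgals3bp, Isg15, Irf9, H2-T23 and Tap2, and only the first 2 had an interval off 1. Ifi27l2a had 45 UMIs in STZ and 3 in control, or 84.0 CPM against 8.32 CPM, a ratio of 10.1 (3.24 to 50.8), with 26.7% of the STZ UMIs in 1 cell. Lgals3bp, a secreted glycoprotein, had 35.5 CPM in STZ and 11.1 CPM in control, a ratio of 3.20 (1.06 to 12.9). Isg15 had 44.8 CPM in STZ and 19.4 CPM in control, a ratio of 2.31 (0.965 to 6.34). Among the class I chains, H2-K1 had 161 CPM in STZ and 108 CPM in control (1.48, 1.01 to 2.23), B2m had 177 CPM in STZ and 150 CPM in control (1.18, 0.839 to 1.69), and H2-D1 had 248 CPM in STZ and 241 CPM in control (1.03, 0.780 to 1.36). Median depths were close, 3378 UMIs in STZ and 3659 UMIs in control.

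In the 5 neuronal classes only 3 to 7 of the 32 genes were measured, mostly class I genes, and H2-D1 had a higher level in STZ in all 5, with an interval off 1 in each. Cone-like cells had 104 CPM of H2-D1 in STZ and 74.1 CPM in control (ratio 1.40, 1.21 to 1.63). Rod-like cells had 53.8 CPM in STZ and 33.1 CPM in control (1.63, 1.12 to 2.40). Rod bipolar-like cells had 37.5 CPM in STZ and 22.9 CPM in control (1.64, 1.24 to 2.17). Cone bipolar-like cells had 81.3 CPM in STZ and 62.9 CPM in control (1.29, 1.09 to 1.53), and amacrine-like cells 220 CPM in STZ and 138 CPM in control (1.60, 1.07 to 2.47). Over all kept cells of a library, H2-D1 stood at 122 CPM in STZ and 78.6 CPM in control. After subtraction of free RNA the log2 ratio in rod bipolar-like cells was 0.26 instead of 0.71. It was 0.19 instead of 0.37 in cone bipolar-like cells and 0.69 instead of 0.67 in amacrine-like cells, and rod-like and cone-like cells have no such value because rod genes set the estimate.

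H2-K1 was higher in STZ in rod-like and rod bipolar-like cells and close to control in the other 3 neuronal classes. Rod-like cells had 56 UMIs in STZ and 20 in control, or 36.3 CPM against 15 CPM (ratio 2.41, 1.43 to 4.25). This log2 ratio of 1.27 was 0.29 without the filter on cells and 0.55 with doublets kept, both under 1.5-fold. Rod bipolar-like cells had 14.9 CPM of H2-K1 in STZ and 7.54 CPM in control (1.97, 1.23 to 3.21). The ratio was 1.16 in cone-like cells (56.8 CPM in STZ, 49.1 CPM in control) and 1.04 in cone bipolar-like cells (80.4 CPM in STZ, 77.3 CPM in control). In amacrine-like cells H2-K1 stood at 55.9 CPM in STZ and 69.0 CPM in control (0.811, 0.439 to 1.59). B2m was measured in rod-like cells alone among the neurons, with 23 UMIs in STZ and 16 in control (1.24, 0.627 to 2.51). Its pooled level lay under 10 CPM in cone-like (ratio 1.20), rod bipolar-like (1.45) and cone bipolar-like cells (0.907), and amacrine-like cells had 17 UMIs in STZ and 2 in control, too few for a call. Rod bipolar-like cells also had 14.0 CPM of Lgals3bp in STZ and 8.30 CPM in control (1.68, 1.06 to 2.71). In amacrine-like cells Ifi27, which lies beside Ifi27l2a on chromosome 12, had 20 UMIs in STZ and 1 in control (4.83, 0.772 to 200.2), and its log2 ratio after subtraction of free RNA was 0.05 instead of 2.27.

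Irf7, the transcription factor that amplifies interferon production (chr7:141262706-141266481, minus strand), was higher in STZ photoreceptor-like cells. Cone-like cells had 91 UMIs in STZ and 15 in control, or 22.3 CPM against 3.72 CPM, a ratio of 5.99 (3.45 to 11.1). The STZ UMIs came from 76 of 890 cells (8.54%, exact binomial interval 6.79% to 10.6%) and the control UMIs from 12 of 753 cells (1.59%, 0.826% to 2.77%), at median depths of 4766 UMIs in STZ and 5520 UMIs in control. In rod bipolar-like cells, a class in which the gene was near 0, 0.368% of STZ cells and 0.340% of control cells had a UMI, at 4293 UMIs in STZ and 4611 UMIs in control. Rod-like cells had 20.1 CPM in STZ and 6.77 CPM in control, a ratio of 2.97 (1.38 to 7.09). Under a stricter filter (500 genes or more, mitochondrial counts up to 10%), the log2 ratio in cone-like cells was 1.34 instead of 2.58. No effector was measured in cone-like cells, and the 16 effectors together had 13.2 CPM in STZ and 11.4 CPM in control. Irf7 shares 45 bases at its 3′ end with Phrf1, which lies on the other strand and had 38.2 CPM in STZ and 33.0 CPM in control cone-like cells. Whether counting used the strand is not given in the sources used here.

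Stat2, by contrast, stood lower in STZ photoreceptor-like cells. Cone-like cells had 33 UMIs in STZ and 61 in control, or 8.08 CPM against 15.1 CPM, 1.87-fold lower (1.21 to 2.95). Rod-like cells had 7.13 CPM in STZ and 15 CPM in control, 2.11-fold lower (0.963 to 4.87). Just inside the 1.5-fold line were 2 genes of cone bipolar-like cells, Stat2 with 16.3 CPM in STZ and 24 CPM in control and Tap2 with 9.03 CPM in STZ and 13.5 CPM in control. Counted together, 3 of 7 measured genes were at least 1.5-fold higher in rod-like cells (9.35% of all genes were) and 1 lower (9.23%), and in cone-like cells 1 of 6 was higher (5.25%) and 1 lower (3.09%). In rod bipolar-like cells 4 of 5 were higher (5.17%) and 0 lower (5.97%), the fourth being Tap2 with 14.0 CPM in STZ and 8.80 CPM in control. In cone bipolar-like cells 0 of 7 were higher (4.62%) and 0 lower (5.01%), and in amacrine-like cells 2 of 3 were higher (16.1%) and 0 lower (13.9%).

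**Figure D5:**
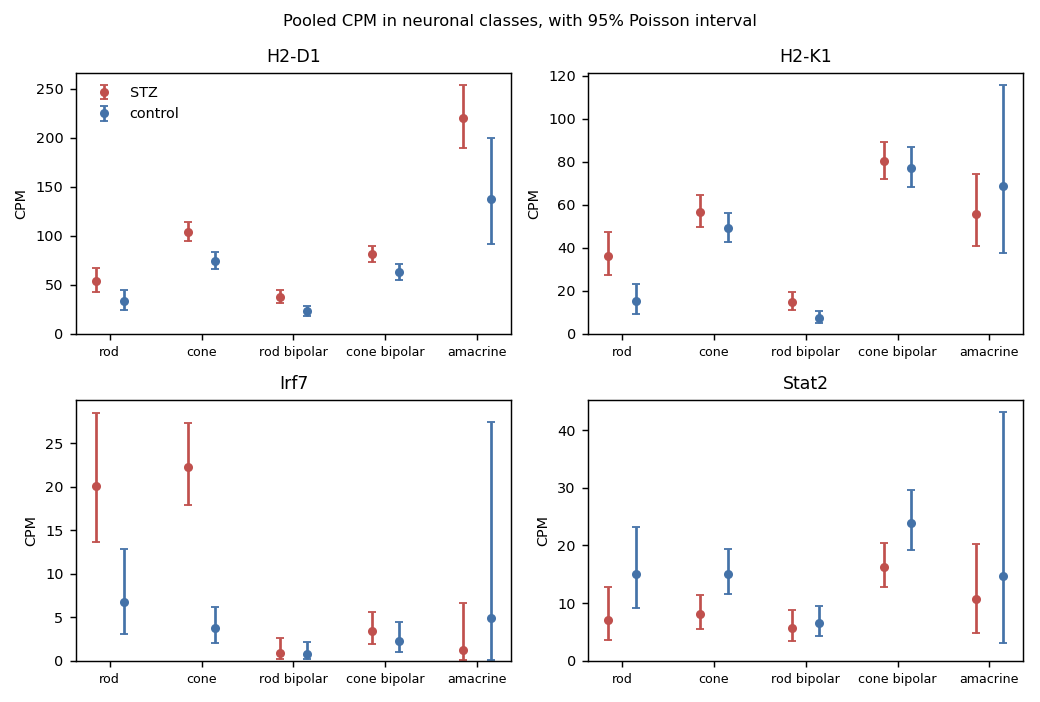
Pooled CPM (y axis) of H2-D1, H2-K1, Irf7 and Stat2 in 5 neuronal classes, STZ in red and left of control in blue, with exact 95% Poisson intervals. H2-D1 is higher in STZ in all 5 classes, Irf7 stands apart in cone-like (22.3 CPM in STZ, 3.72 CPM in control) and rod-like cells, and Stat2 is lower in STZ in both.

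Microglia-like cells were too few for the comparison, at 25 STZ and 13 control cells, and their values are given as a description. B2m had 519 UMIs in STZ, 54 of them in 1 cell, and 156 in control, 35 of them in 1 cell. That is 2965 CPM against 1978 CPM for B2m (ratio 1.5, 1.25 to 1.80). The heavy chains did not stand higher with it. H2-D1 had 1468 CPM in STZ and 1737 CPM in control (0.845, 0.684 to 1.05), and H2-K1 863 CPM in STZ and 938 CPM in control. Ifi27l2a had 76 UMIs in STZ and 11 in control, with 17 of 25 STZ cells and 4 of 13 control cells holding a UMI. Isg15 had 20 UMIs in STZ and 1 in control, but 70.0% of the STZ UMIs were in 1 cell. Cxcl10 had 13 UMIs in STZ, 84.6% of them in 1 cell, and 0 in control. The cluster's leading genes included Ccl3, Ccl4 and Tnf. At a finer clustering, 106 STZ and 39 control cells were microglia-like. They included a cluster of 25 STZ and 13 control cells with the same median depths as the cluster above, so the larger set is no separate check. B2m had 3017 CPM in STZ and 1983 CPM in control in the larger set (1.52, 1.31 to 1.78). Lgals3bp had 196 CPM in STZ and 62.8 CPM in control (3.13, 1.41 to 8.18), with 15 of the 49 STZ UMIs in 1 cell, and Ifi27l2a 409 CPM in STZ and 153 CPM in control (2.68, 1.59 to 4.78). H2-D1 was lower there, at 1258 CPM in STZ and 1570 CPM in control (0.801, 0.664 to 0.969). The highest cell held 31 of its 314 UMIs in STZ and 39 of its 175 UMIs in control. How far these cells set the ratio was not tested. Irf7 had 4 UMIs from 2 cells in STZ and 7 UMIs in control, all from 1 cell, too few for a ratio.

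The rest of the pathway was read from 100 other genes, of which 80 were in the table, and 0 of the 8 interferon genes listed were among them. In Müller glia-like cells 1 of 16 measured further interferon-induced genes was at least 1.5-fold higher, Rsad2, the antiviral enzyme viperin, with 112 UMIs in STZ and 42 in control (3.52, 2.45 to 5.14), and 0 were lower. Of all genes in this class 5.88% were higher, so 1 of 16 is near the background. The receptor chains Ifnar1 and Ifnar2 and the kinase Jak1 were measured there and lay within 1.5-fold. In endothelial-like cells 12 of 23 further interferon-induced genes were lower and 1, Iigp1, was higher, where 17.9% of all genes in this class were lower and 20.8% higher. Ifi44 had 10 UMIs in STZ and 33 in control, 7.15-fold lower (3.44 to 16.3), and Ifi203 had 94.6 CPM in STZ and 299 CPM in control, 3.16-fold lower (2.26 to 4.45). Iigp1, an interferon-induced GTPase, had 82.2 CPM in STZ and 30.2 CPM in control (2.72, 1.33 to 6.27). Ifnar2 had 102 CPM in STZ and 205 CPM in control endothelial-like cells, 2.0-fold lower, and Ifnar1 and Jak1 were also at least 1.5-fold lower there. In pericyte-like cells 0 of 8 measured further interferon-induced genes were at least 1.5-fold higher and 0 lower, with a median log2 ratio of -0.08. Of all genes in this class 13.0% were higher and 10.4% lower. Of 8 measured interferon receptors and kinases, 3 were higher there and 0 lower. Among these 3, Stat3, a signal transducer of cytokine receptors, had 108 CPM in STZ and 55.5 CPM in control (1.95, 1.16 to 3.43). Ifngr1, a receptor chain for interferon gamma, had 69.1 CPM in STZ and 38.8 CPM in control (1.78, 0.940 to 3.56). The 3 constitutive proteasome subunits lay within 1.5-fold in all 8 classes. Calr, a chaperone of class I folding, was lower in STZ in 5 classes, for example 203 CPM in STZ and 370 CPM in control cone bipolar-like cells (1.83-fold, 1.68 to 1.99).

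Across the 8 compared classes, 98 of the 256 pairs of gene and class were measured, of which 20 were at least 1.5-fold higher in STZ (over all genes 9.48% of measured pairs were) and 15 lower (8.08%). These pooled shares come from another mix of classes. Endothelial-like cells gave 29 of the 98 pairs but 6597 of the 61333 pairs over all genes, and there 20.8% of all genes were higher and 17.9% lower. The 15 lower pairs comprised 13 in endothelial-like cells and Stat2 in rod-like and cone-like cells. No gene of class I presentation was among the lower pairs.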

How the data were processed

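The deposited table holds raw UMI counts per gene and cell, deposited by the authors. The submitters' processing notes name Cell Ranger 3.0.1, Seurat 3.0 and mm10; their settings are not given in the sources used here. All values are whole, and a cell's library was read from its name. No cell has over 2999 genes and the lowest total is 499 UMIs, so low droplets are missing. Total counts were 33178624 UMIs in STZ and 27279124 in control.

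Kept cells had 200 genes or more and no more than 20% mitochondrial counts (above this: 28.5% of STZ and 25.7% of control cells). Scrublet scored doublets; its automatic threshold called 0 STZ and 37 control cells, so the highest scores were removed in both libraries at 0.8% per 1000 cells (628 STZ, 227 control). Clustering (scanpy 1.11.5) used 2000 variable genes without the listed genes, 10000 counts per cell, scaling within each library, 30 components, 15 neighbours and Leiden resolution 1.0. A cluster took the class with the largest share of leading markers, at least 3; a marker led where in 10% of cells, 1.5-fold over the rest and at 25% of its top cluster. A cluster stayed unnamed where another class had more markers among its top 10 genes, as in cluster 18, or where its cells were shallow and none of its own were there. The members, lists, markers and rules were chosen with earlier results of these data known. Clusters 12, 14, 15 and 18 stayed unnamed (cluster 12: 1478 STZ and 6 control cells).

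Levels have exact Poisson, shares Clopper-Pearson and ratios conditional binomial 95% intervals, which treat UMIs as independent and cover counting error only. A count of 0 was set to 3 in ratios. Named were B2m, H2-D1 and H2-K1 in every class and up to 3 genes per class and direction at 1.5-fold or more. Isg15 in Müller glia-like cells, deeper-cell and single-cluster values, microglia-like cells, Irf7's neighbours and the genes of the printed sequences were chosen after values were seen. Alternatives were other filters, doublets kept, resolutions 0.5 and 2.0, listed genes used in clustering, means over cells, edgeR 4.0.16 TMM factors, thinning to 500 UMIs, no minimum level, the highest cell left out and subtraction of free RNA. Gene positions are from GENCODE on mm10. The ratio code was tested on simulated data.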

Additional observations from a re-analysis of the deposited data

Results flagged for a closer look

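Isg15, Ifit1 and Ifi27l2a differed in opposite directions between 2 classes under the same contrast, and these differences were not tested. Isg15 had a log2 ratio of STZ over control of 0.72 in Müller glia-like cells and -0.80 in endothelial-like cells. Ifit1 had 2.01 in Müller glia-like cells and -0.90 in endothelial-like cells. Ifi27l2a had 3.34 in pericyte- or smooth muscle-like cells and -2.80 in endothelial-like cells. In endothelial-like cells with at least 2000 UMIs the interval of the ratio of Isg15 and of Ifit1 included 1. Ifi27l2a was 8.67-fold lower there (4.70 to 17.5), with 12 UMIs in STZ and 81 in control. Over the whole endothelial-like class, 65 of its 87 control UMIs were in 3 cells. Outside the 3 highest cells of each library the ratio was 0.441, with 21 UMIs in STZ and 22 in control. How far these cells set the ratio in the deeper cells was not tested. In pericyte- or smooth muscle-like cells the log2 ratio of Ifi27l2a was lower with cells thinned, as given below.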

How the results depend on the processing

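No paired analysis was possible because there is 1 library per group and the labels give no replicate numbers. The count of pairs at least 1.5-fold higher in STZ, 20 as reported, was 13 under the stricter filter on cells (500 genes or more, mitochondrial counts up to 10%), 10 with cells thinned to 500 UMIs and 50 with no minimum level. The count of lower pairs, 15 as reported, was 8 under the stricter filter, 24 with means over cells, 27 with no minimum level, 5 after subtraction of free RNA and 6 in cells with at least 2000 UMIs, a setting chosen after seeing the data. The median log2 ratio of endothelial-like cells was 0.12 after subtraction of free RNA, against -0.49. With no minimum level it was 0.37 in cone bipolar-like cells, against 0.06, and reversed in amacrine-like cells to -0.30, against 0.67. Thinning turned the log2 ratio of Stat2 in rod-like cells to 0.029, of H2-K1 in rod bipolar-like cells to -0.30 and of Isg15 in pericyte-like cells to -0.26, at levels near 1 UMI; it also gave 0.33 for Ifi27l2a in pericyte-like cells, against 3.34. Without the highest cell of each library, Ifi27l2a in endothelial-like cells was at -2.02, against -2.80. Apart from thinning to few UMIs, fewer genes tested or fewer cells, the cause of these moves was not tested. Of the single-gene values, 442 stayed within the counting interval, 44 moved beyond it and 3 that were past 1.5-fold turned round. Those that moved were 15 under thinning, 8 under the stricter filter, 5 after subtraction of free RNA, 5 with means over cells, 4 in cells with at least 2000 UMIs, 4 in cluster 9 and 1 in cluster 10 of Müller glia-like cells alone, 1 without the filter on cells and 1 without the highest cell. Of the summary values, 113 stayed within the interval or, for counts of pairs, within 1.5 times. In neuronal classes 3 to 7 genes passed the minimum level.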

Other observations

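Drd4, a dopamine receptor gene that starts 25524 bases beyond the 5′ end of Irf7 on chromosome 7, was chosen after values were seen because Irf7 was higher in photoreceptor-like cells. Cone-like cells had 2582 UMIs of Drd4 in STZ and 587 in control, or 632 CPM against 146 CPM, and rod-like cells 909 CPM in STZ and 342 CPM in control. Müller glia-like cells had 49.7 CPM in STZ and 5.19 CPM in control. Sct, which lies between both genes, had 39 UMIs in STZ and 18 in control cone-like cells.

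In cluster 18, unnamed because neutrophil genes led it beside microglia markers, there were 129 STZ and 27 control cells. B2m stood at 1524 CPM in STZ and 2040 CPM in control there, and the 10 class I genes together at 3069 CPM in STZ and 4740 CPM in control. At the finer clustering 49 STZ cells and 1 control cell formed a neutrophil-like cluster. The control cell, with 740 UMIs, had 0 UMIs of the neutrophil genes S100a8 and S100a9. The neutrophil-like STZ cells had 100 UMIs of Ifitm2, 33 of them in 1 cell, and 54 of B2m, or 469 CPM. Microglia-like cells at the finer clustering had 3017 CPM of B2m in STZ and 1983 CPM in control. How far the mix of cell types set the levels of cluster 18 in each library was not tested.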
